A study of Mus musculus with 26 samples.

Results

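The glutathione peroxidases were followed as a gene family: the 8 genes Gpx1 to Gpx8, picked by symbol from the 23337 genes counted in every sample. RNA was sequenced from the testis and from the first 2 regions of the epididymis, initial segment (IS) and caput, in male mice aged 3 months. ArKI mice are knock-in animals that carry point mutations at an endogenous locus in every cell. They were compared with wild-type (WT) mice, and all groups share the same hybrid C57Bl/6N and 129 background. IS and caput are represented by 5 ArKI and 5 WT samples each, and testis by 3 ArKI and 3 WT samples. IS and caput were taken from 5 mice of each genotype, but which samples share a mouse is not given, so p-values measure the spread between these samples.

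Total counts per sample ran from 5829074 to 9770625 in IS, from 4125768 to 11913469 in caput and from 14077013 to 21376604 in testis. The testis libraries were sequenced in another run than the epididymal ones, so in every contrast with testis the run cannot be told apart from the tissue. Listed region markers did not all go with their region. Adam28, an IS gene, averaged 4985 CPM (counts scaled to library size) in WT IS and 109 CPM in WT caput. Lcn5, a caput gene, averaged 78.7 and 14416 CPM. Of 5 tested genes listed as IS markers 4 were higher in WT IS and 1, Defb42, was higher in WT caput (1688 and 2094 CPM). Of 6 genes listed as caput markers, 4 (Lcn8, Lcn9, Crisp1 and Cst8) were higher in WT IS than in WT caput. Several genes high in IS were widely spread among the WT caput samples: Adam28 at 8.03 to 222, Lcn8 at 39.9 to 1081 and Crisp1 at 16.9 to 855 CPM. The part of the dissection in the caput levels of the members, and in their differences between regions, was not tested. Point mutations such as those of the knock-in cannot be checked by gene counts. The samples are whole tissue, so fewer cells of a type and less RNA per cell cannot be told apart.

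Glutathione peroxidases reduce hydrogen peroxide and lipid hydroperoxides to water and alcohols, and most of them spend glutathione to do so. Glutathione reductase then recycles the oxidised glutathione with NADPH. Sperm membranes are rich in polyunsaturated lipids, and the epididymal epithelium releases antioxidant enzymes into the lumen in which sperm mature. Gpx1 is the cytosolic enzyme of most cells, Gpx2 is best known from gut epithelium, Gpx3 is secreted, and Gpx4 acts on lipid hydroperoxides in membranes and is also a structural protein of the sperm midpiece. Gpx5 is the secreted peroxidase of the epididymis, Gpx6 is its close relative known from the olfactory epithelium, and Gpx7 and Gpx8 reside in the endoplasmic reticulum, where they serve oxidative protein folding.

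The members divide by the residue that meets the peroxide, and the codon for it is shown here because it separates selenium-dependent from selenium-independent enzymes. Each line gives 27 coding bases, 5′ to 3′ in the direction of the gene, from the GENCODE M21 transcripts of GRCm38, with the catalytic codon in capitals.

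Gpx1: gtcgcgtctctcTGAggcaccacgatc

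Gpx2: gtggcgtcactcTGAggaacaactacc

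Gpx3: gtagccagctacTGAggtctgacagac

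Gpx4: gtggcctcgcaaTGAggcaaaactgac

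Gpx5: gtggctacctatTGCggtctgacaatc

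Gpx6: gtggcatccttcTGTggcctgacagct

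Gpx7: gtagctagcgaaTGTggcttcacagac

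Gpx8: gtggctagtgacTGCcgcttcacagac

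Gpx1 to Gpx4 carry TGA, normally a stop codon and here read as selenocysteine, and Gpx5 to Gpx8 carry a cysteine codon, TGC or TGT. In GRCm38 these codons lie in exons at chr9:108339451-108339453 (plus strand) in Gpx1, chr12:76795256-76795258 (minus) in Gpx2, chr11:54907256-54907258 (plus) in Gpx3 and chr10:80054737-80054739 (plus) in Gpx4. The cysteine codons lie at chr13:21291336-21291338 (minus) in Gpx5, chr13:21313777-21313779 (plus) in Gpx6, chr4:108403430-108403432 (minus) in Gpx7 and chr13:113045661-113045663 (minus) in Gpx8. Gpx5 (chr13:21286429-21292731) and Gpx6 (chr13:21312125-21319624) are close neighbours on opposite strands. By alignment of the translated transcripts, Gpx5 shared 63.8% of aligned residues with Gpx6 and 65.2% with Gpx3, Gpx1 shared 63.2% with Gpx2, and Gpx7 shared 48.4% with Gpx8. None of the exact 50-base stretches of Gpx1, Gpx3, Gpx5, Gpx6, Gpx7 or Gpx8 occurred in another gene's transcript. Of the 50-base stretches of Gpx4, 61.7% were also found in the pseudogene Gpx4-ps2 or in AC122253.3, and 18.9% of those of Gpx2 in Gpx2-ps1. Since only uniquely mapped reads were counted, the level of Gpx4 is understated, and its values are best read between samples rather than against other genes.

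Gpx5 was the most abundant transcript of all 23337 genes in each of the 4 epididymal groups. It averaged 41737 ± 3206 CPM in WT IS, 46017 ± 7781 in ArKI IS, 50050 ± 6407 in WT caput and 44876 ± 9952 in ArKI caput (SD, n = 5 each). In single epididymal samples it took 3.45 to 5.96% of all counts and 96.2 to 99.2% of the CPM of the family. The other members were lower by orders of magnitude, as the plot of levels in all samples shows.

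**Figure D1:**
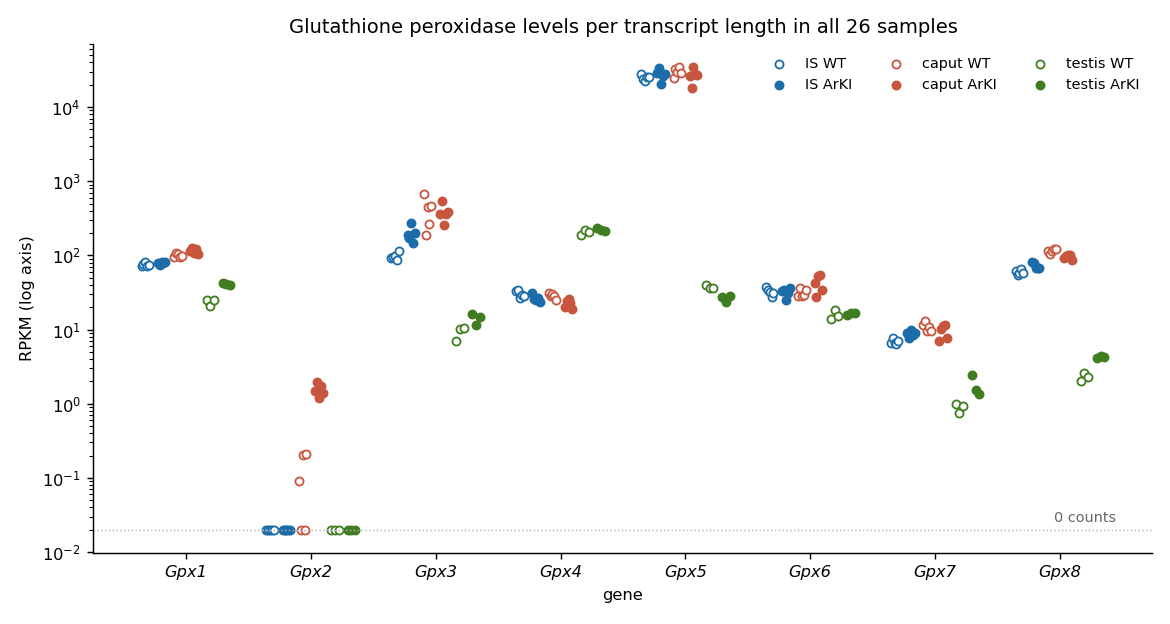
Level per length (RPKM, which is CPM per kilobase of transcript, log axis) of the 8 genes in each of the 26 samples. Open circles are WT and filled circles ArKI samples, and samples with 0 counts sit on the dotted line. Gpx5 leads in IS and caput and Gpx4 in testis, and Gpx2 is above 1 RPKM only in ArKI caput.

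Levels of different genes were compared per length, in RPKM (CPM per kilobase of the longest coding transcript). In WT IS, Gpx5 at 24932 RPKM was followed by Gpx3 at 97.8, Gpx1 at 74.4, Gpx8 at 59.5, Gpx6 at 32.5, Gpx4 at 30.2 and Gpx7 at 6.80, while Gpx2 had no count. Gpx6 and Gpx4 overlapped between samples, and Gpx1 and Gpx8 changed places when the length of all exons was used instead of the longest coding transcript. The place of Gpx4 in this order could be higher, since its level is understated. WT caput had the same members on top, with Gpx5 at 29898 RPKM, Gpx3 at 409, Gpx8 at 115 and Gpx1 at 100.2, the last 2 overlapping. In WT testis the order was a different one: Gpx4 led with 205 RPKM, ahead of Gpx5 at 37.6, Gpx1 at 23.3, Gpx6 at 15.8, Gpx3 at 9.15, Gpx8 at 2.31 and Gpx7 at 0.898. No neighbours in that testis order overlapped between samples.

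The comparison of WT caput with WT IS asked how the family is graded along the normal duct. By the quasi-likelihood test of edgeR (p-values adjusted over all genes by Benjamini-Hochberg), 4 of the 7 members counted in both regions were higher in caput and none was lower. Gpx2, which had no count in WT IS and entered the test only through its counts in ArKI caput, is given apart from this tally. Of all tested genes 69.4% were called, 34.4% as higher and 35% as lower, 56.7% had groups that did not overlap, and 21.6% passed the study's limits for the epididymis (an adjusted p below 0.01 with a fold change above 2), which among the members Gpx3 alone passed. Gpx3 differed most among the members with ample counts: the WT IS samples held 147, 151, 158, 139 and 184 CPM, and the WT caput samples 1066, 304, 720, 422 and 748 CPM. The groups did not overlap, the caput samples were widely spread among themselves, and the log2 difference was 2.07 (SE 0.29, adjusted p = 7.89e-06). Gpx8 was higher by 0.96 (SE 0.06, adjusted p = 3.01e-13), Gpx7 by 0.69 (SE 0.12, adjusted p = 2.4e-05) and Gpx1 by 0.43 (SE 0.06, adjusted p = 1.72e-07) on the log2 scale, and none of these 3 overlapped between the regions. The call of Gpx2 (adjusted p = 0.0315) rests on 5 counts in WT caput against 0 in WT IS, below 3 counts in every library, so no fold is given; it was lost with DESeq2 (adjusted p = 0.064) or without WT caput sample 3 or 5 (adjusted p = 0.0673 and 0.0671). Gpx5 stood 0.27 higher in caput (SE 0.14, adjusted p = 0.0924) and passed with WT samples alone in the fit (adjusted p = 0.0108) or without WT caput sample 1 or ArKI caput sample 2 (0.0414 and 0.0403), in a range up to 0.184 over all alternatives. Gpx4 stood at −0.07 (adjusted p = 0.5) and Gpx6 at −0.05 (adjusted p = 0.764), and neither passed.

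WT testis was then set against the WT epididymis. All 7 members that could be tested differed from IS and from caput without overlap of the groups, as did most genes: 91.9% were called against IS and 92% against caput, and 89.7% and 89.8% did not overlap. Of all genes 49.4% were called higher in testis and 42.5% lower against IS, and 48.8% and 43.2% against caput. All but Gpx6 passed the study's limits, as did 69.3% of genes in either contrast. Gpx4 alone among them was higher in testis, by 2.81 against IS and 2.88 against caput on the log2 scale (SE 0.08 each, adjusted p = 1.64e-20 and 1e-20), where the median of all genes stood at 0.19 and 0.16. The sperm and late spermatid transcripts, among them the protamines Prm1 and Prm2, summed to 32155 to 38616 CPM in WT testis, 77.4 to 152 CPM in WT IS and 316 to 473 CPM in WT caput. Gpx5 was lower in testis, with log2 differences of −9.32 against IS and −9.59 against caput. Gpx8 gave −4.64 and −5.60, Gpx3 −3.38 and −5.45, Gpx7 −2.85 and −3.54, Gpx1 −1.62 and −2.06; Gpx6 differed least, by −0.95 against caput. Gpx5 was nevertheless present in every testis sample, with 930, 692 and 709 counts in WT. Its WT testis level was 0.126% of that in WT caput, compared with 0.0166% for Adam7, 0.0349% for Lcn5, 0.0323% for Lcn9, 0.365% for Crisp1 and 0.433% for Lcn8, other transcripts of the epididymal epithelium. Against WT IS, where several of these are more abundant than in caput, the testis level of Gpx5 was 0.151%, that of Adam7 0.0152%, of Lcn8 0.0164%, of Lcn9 0.00152%, of Crisp1 0.0664% and of Lcn5 6.40%. The place of Gpx5 among these genes thus depended on the region it was set against. Cst8 stood apart with a testis level of 171% of caput and 7.82% of IS. The part of epididymal RNA in the testis Gpx5 counts was not tested.

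ArKI and WT samples were compared within each tissue to ask how the family differs in the knock-in mice. In IS, 3 of 7 tested members rose and none fell; in caput 1 of 7 rose and 2 fell; in testis 2 of 7 rose and 1 fell. The shares of all genes called were 29.6% in IS (15% higher, 14.6% lower), 27.7% in caput (13.7% and 14%) and 1.96% in testis (1.64% and 0.328%). Groups did not overlap for 2 of 7 members in IS, 1 of 7 in caput and 5 of 7 in testis, and for 20.1%, 19.8% and 17.4% of all genes. Gpx8 was the only member that passed in all 3 tissues, rising in IS and testis and falling in caput. Gpx5, the dominant transcript, passed in neither epididymal region. Gpx2 is left out of these caput counts, since it could be tested there only through the ArKI samples in which it was high.

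**Figure D2:**
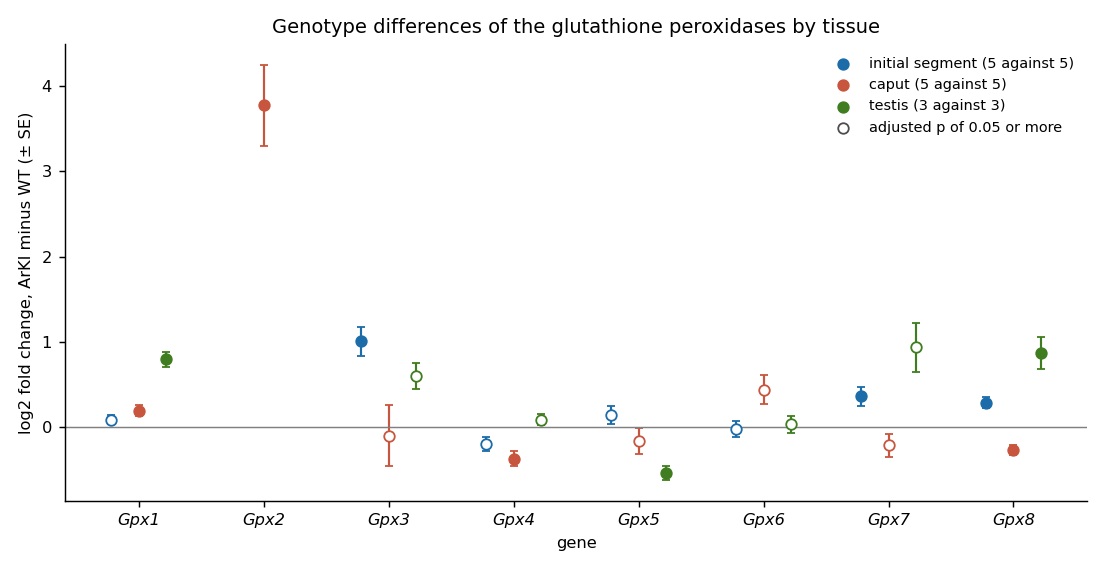
Log2 fold change of ArKI against WT with its standard error for each gene in IS (blue), caput (red) and testis (green), from edgeR. Filled circles have an adjusted p below 0.05. Gpx2 in caput (3.77, fitted on 5 WT counts) lies far above the other members, and Gpx8 is above 0 in IS and testis and below 0 in caput.

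In ArKI IS the secreted Gpx3 rose about 2-fold and the endoplasmic reticulum peroxidases Gpx8 and Gpx7 rose moderately. Gpx3 stood at 147, 151, 158, 139 and 184 CPM in WT IS and at 303, 275, 437, 232 and 318 CPM in ArKI IS. Every ArKI sample lay above every WT sample, and the log2 difference was 1.01 (SE 0.17, edgeR adjusted p = 0.00207). It was the only member past the study's limits, which 4.04% of all genes passed, but it met the fold limit narrowly. Its log2 difference was below 1 with limma voom and the replicate block (0.98 each), with the length trend removed (0.99), with every gene with a count kept, and without WT sample 1, 2 or 4 or ArKI sample 3 or 5 (lowest 0.85), and its adjusted p was 0.0147 with all 4 epididymal groups in the fit.

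Gpx8 was present at 65.1, 56.4, 60.2, 67.8 and 60.3 CPM in WT IS and at 85.5, 81.0, 69.8, 69.6 and 70.9 CPM in ArKI IS. These groups also did not overlap, with the lowest ArKI sample just above the highest WT sample (0.28 on the log2 scale, SE 0.07, edgeR adjusted p = 0.0026). Gpx7 was measured at 8.55, 9.77, 8.42, 8.13 and 8.94 CPM in WT IS and at 11.5, 9.76, 12.7, 10.9 and 11.5 CPM in ArKI IS. One ArKI sample was level with the highest WT sample, and the difference of 0.36 (SE 0.11, edgeR adjusted p = 0.0176) was lost without ArKI sample 3 (adjusted p = 0.0522, from 0.0111 upwards over the samples left out).

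The other 4 members did not pass in IS. Gpx5 stood 0.14 higher (SE 0.11, adjusted p = 0.375), with ArKI sample 3 the lowest of all IS samples at 34686 CPM; without it the difference was 0.23 and passed (adjusted p = 0.0192, up to 0.694 over the samples left out). Gpx4 stood at −0.20 (SE 0.09, adjusted p = 0.0927) and passed without ArKI sample 1 (−0.26, adjusted p = 0.0277, up to 0.227 over the samples left out). Gpx1 at 0.09 (adjusted p = 0.213) and Gpx6 at −0.03 (adjusted p = 0.866) were closest to no difference. Gpx2 had no count in any of the 10 IS samples, which allows up to 0.295 to 0.480 CPM per library at 3 counts.

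Markers of other cell types moved in the same IS samples. All 5 smooth muscle markers fell, and their sum went from 514 to 593 CPM in WT to 224 to 400 CPM in ArKI. All 4 endothelial markers fell, 4 of 6 stroma markers rose and 1 fell (summed 1103 to 1240 CPM in WT and 1218 to 1564 CPM in ArKI), 3 of 5 basal cell markers fell, and 1 of 7 immune markers rose and 3 fell. Of 3 tested markers of the ciliated cells of the efferent ducts, Foxj1 (27.5 to 68.6 CPM on average) and Deup1, listed as Ccdc67, rose and Ccno (83.6 to 72.1 CPM) fell. Of 5 tested sperm and late spermatid markers 3 fell and 1 rose, with a median of −2.46 on the log2 scale. The list summed to 77.4 to 152 CPM in WT and 62.0 to 84.1 CPM in ArKI. Most of that was Odf2, at 66.1 CPM in WT and 64.6 CPM in ArKI on average. Of 6 genes listed as caput epithelium markers 4 fell, among them Crisp1 from 1967 to 329 CPM, and 1 rose. Since Lcn8, Lcn9, Crisp1 and Cst8 of this list were higher in WT IS than in WT caput, the list does not mark caput cells in IS samples. Of the clear and narrow cell markers 2 of 5 rose and 1 fell, and 2 of 5 IS epithelium, 1 of 3 Leydig cell and 2 of 3 Sertoli cell markers rose. No marker of the smooth muscle, stroma, endothelium or efferent duct lists was at 0 throughout a group, and the part of these cell types in the Gpx3, Gpx7 and Gpx8 differences was not tested.

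**Figure D3:**
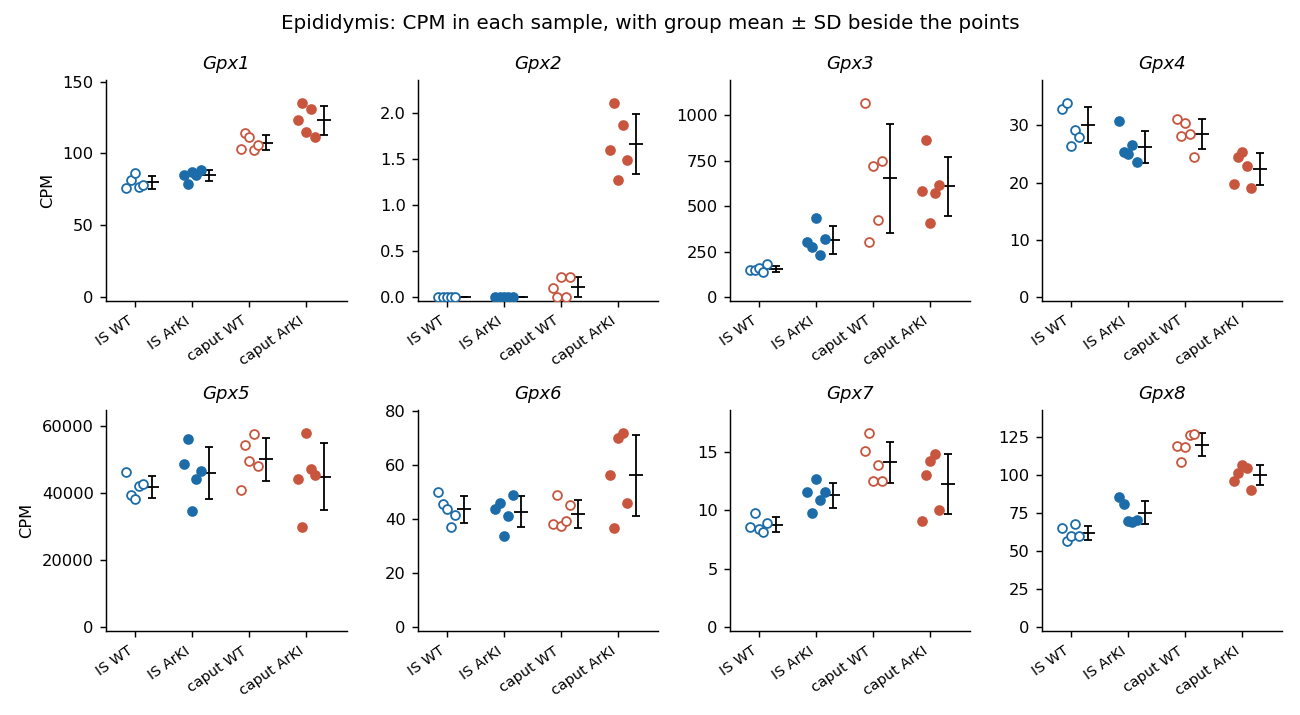
CPM of each gene in every IS (blue) and caput (red) sample, open circles for WT and filled for ArKI, with the group mean and SD (n = 5) as black bars. ArKI samples lie wholly above WT for Gpx3 and Gpx8 in IS and for Gpx2 in caput, and wholly below WT for Gpx8 in caput.

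In ArKI caput members moved both ways: Gpx1 rose, Gpx4 and Gpx8 fell, and Gpx2 was counted almost only in ArKI samples. Gpx2 was counted 1, 0, 2, 0 and 2 times in the WT caput samples and 14, 10, 15, 23 and 19 times in the ArKI caput samples. Every ArKI sample exceeded every WT sample, and edgeR gave an adjusted p of 1.4e-05. Gpx2 passed the filter on low counts only through the ArKI samples, so this p is a description and not support for the difference. The fitted log2 difference of 3.77 (SE 0.48) rests on WT libraries that each held fewer than 3 counts and is not a precise fold. The depth-corrected ratio of the 81 ArKI to the 5 WT counts was 15.1, with a 95% interval of 6.22 to 47.8 that covers counting error only. Even so, the ArKI mean was only 1.66 ± 0.33 CPM (SD, n = 5). None of the other 7 members passed the study's limits in caput, which 4.98% of genes passed.

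Gpx2 overlaps Fntb on the other strand at chr12:76792333-76795554, and whether strand was used in counting is not known, so reads of the 2 genes cannot be told apart there. Fntb was level between the genotypes, at 22.2 ± 1.58 CPM in WT caput and 22.6 ± 2.90 in ArKI caput (SD, n = 5). The processed copy Gpx2-ps1 had 0 to 1 count in WT caput samples and 0 in all ArKI caput samples.

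Gpx4 was at 31.1, 28.2, 30.4, 28.5 and 24.5 CPM in WT caput and at 19.8, 24.4, 25.4, 23.0 and 19.1 CPM in ArKI caput. Only the lowest WT sample reached into the ArKI range, and Gpx4 fell by 0.37 on the log2 scale (SE 0.09, edgeR adjusted p = 0.00573). In the same samples all 12 sperm and late spermatid markers fell, with a median of −2.86. Their summed level was 316 to 473 CPM in WT caput and 93.6 to 161 CPM in ArKI caput, and Prm1, Tnp1 and Akap4 averaged 1.82, 0.872 and 1.10 CPM in ArKI against 19.7, 10.1 and 15.4 CPM in WT. The part of sperm RNA in the Gpx4 difference was not tested.

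Gpx8 held 119, 109, 119, 126 and 127 CPM in WT caput and 95.9, 102, 107, 105 and 90.5 CPM in ArKI caput. The groups did not overlap, and Gpx8 fell by 0.27 on the log2 scale (SE 0.06, edgeR adjusted p = 0.00161). Gpx8 overlaps Cdc20b on the other strand, which is not listed under that name among the counted genes. Reads of Cdc20b could therefore not be set beside those of Gpx8 in caput, IS or testis. Gpx1 was at 103, 114, 111, 103 and 106 CPM in WT caput and at 123, 135, 115, 131 and 111 CPM in ArKI caput. The groups overlapped by 1 ArKI sample, and the rise of 0.19 (SE 0.06, edgeR adjusted p = 0.028) was lost when WT sample 1, 4 or 5 or ArKI sample 1 or 4 was left out (adjusted p = 0.0514 to 0.0744).

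Gpx6 stood at 38.3, 49.0, 37.6, 39.2 and 45.3 CPM in WT caput and at 56.2, 36.8, 69.9, 71.8 and 46.0 CPM in ArKI caput. In 3 ArKI samples it was above all WT samples, but ArKI sample 2 was the lowest of the 10, and 0.44 on the log2 scale (SE 0.17) did not pass in edgeR (adjusted p = 0.0918). It passed with DESeq2 (adjusted p = 0.0206), limma voom (0.0396), library sizes alone (0.0468), all 4 epididymal groups in the fit (0.029), or without ArKI sample 2 (0.0223), the shallowest library, in a range up to 0.242 over all alternatives. Gpx6 and its neighbour Gpx5 varied together among the samples of a group, with r = 0.728 over the 20 epididymal samples after removal of group means, a description over samples that share libraries. Set against Gpx5 in the same library, Gpx6 gave 0.936, 0.903, 0.758, 0.681 and 0.946 counts per 1000 Gpx5 counts in WT caput and 1.28, 1.23, 1.21, 1.52 and 1.02 in ArKI caput. These ratios did not overlap in caput, whereas those of WT IS (0.875 to 1.16) and ArKI IS (0.815 to 1.05) did. The ratio is a description without a test, and neither gene passed in caput by itself. Among single genes 19.8% did not overlap there, and the share of genes whose ratio to Gpx5 separates was not counted.

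**Figure D4:**
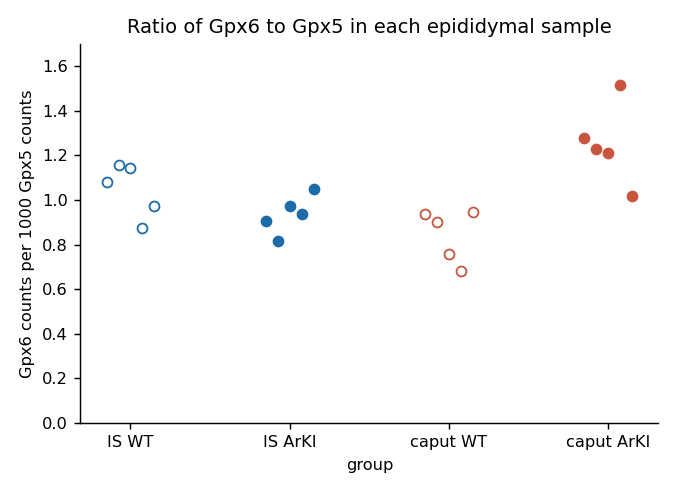
Gpx6 counts per 1000 Gpx5 counts in each epididymal sample, open circles for WT and filled for ArKI, on a linear axis from 0. The 5 ArKI caput samples (1.02 to 1.52) lie above the 5 WT caput samples (0.681 to 0.946), and the IS groups overlap. No test was run on the ratio.

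The remaining 3 members did not pass in caput. Gpx3 varied widely there, at 304 to 1066 CPM in WT and 406 to 861 CPM in ArKI, and its difference of −0.10 (SE 0.36, adjusted p = 0.877) ranged from −0.28 to 0.16 when single samples were left out. Gpx5 stood at −0.16 (SE 0.15, adjusted p = 0.473), with 40880, 54246, 49578, 57644 and 47904 CPM in WT and 44075, 29959, 57804, 47275 and 45267 CPM in ArKI. The low value belonged to ArKI sample 2, which also had the highest Gpx3 of the ArKI caput samples. Gpx7 stood at −0.21 (SE 0.14, adjusted p = 0.275).

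Markers of other cell types also moved in the ArKI caput samples. Of 4 endothelial markers 2 rose, Pecam1 and Kdr (7.91 to 15.3 CPM on average), and their list summed to 39.0 to 41.6 CPM in WT and 45.3 to 64.8 CPM in ArKI. Of 7 immune markers 1 rose, Cd74 (62.4 to 128 CPM), with sums of 95.4 to 116 and 144 to 233 CPM. Of 6 stroma markers 1 rose, with sums of 768 to 899 and 903 to 2130 CPM. Of 4 clear and narrow cell markers 2 rose and 1 fell, 2 of 5 IS epithelium markers rose, and 1 of 6 caput epithelium markers and 1 of 4 markers of efferent duct ciliated cells fell. Of the 5 basal cell and 5 smooth muscle markers none passed, and 1 of 2 Leydig cell and 1 of 3 Sertoli cell markers rose. The part of these cell types in the Gpx1, Gpx2 and Gpx8 differences was not tested.

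A segment by genotype term in a fit of the 20 epididymal samples tested whether these differences differ between IS and caput, and it passed for 2 of the 7 members tested and 15.1% of all genes (7.38% with a positive and 7.77% with a negative term). None of the members and 3.1% of all genes passed the study's limits on this term. Gpx8 rose in IS and fell in caput, and its caput difference was 0.56 below its IS difference on the log2 scale (−0.56, SE 0.09, edgeR adjusted p = 8.05e-05). Gpx7 gave −0.58 (SE 0.18, adjusted p = 0.0266), lost without ArKI IS sample 3, WT caput sample 2 or ArKI caput sample 5 (adjusted p = 0.0566, 0.0512 and 0.0511). Gpx3 had the largest term in size, −1.11 (SE 0.40), but at an adjusted p of 0.0748 it was not shown to differ between the regions; it passed with DESeq2 (0.0314) and without WT caput sample 2 or 4 or ArKI caput sample 2 (0.0179, 0.0467 and 0.041), with a highest value of 0.177 among the alternatives. Gpx1, Gpx4, Gpx5 and Gpx6 did not pass (adjusted p = 0.454, 0.414, 0.331 and 0.152), though Gpx6 did without ArKI caput sample 2 (0.0461, up to 0.311 over all alternatives). Gpx2 was left out of this test, as it had no count in IS in either genotype.

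The gradient from IS to caput within ArKI mice was described in the same fit, and it shares its samples with the comparisons above. In ArKI mice 4 of the 7 members counted in both regions were higher in caput and 1 was lower, beside 66.2% of all genes called (33% and 33.2%). Groups did not overlap for 2 of these 7 members and 48% of genes, and none of the 7 but 19.8% of genes passed the study's limits. Gpx3 differed by 0.96 (SE 0.28, adjusted p = 0.00689) and its groups overlapped, Gpx8 by 0.40 (SE 0.06, adjusted p = 3.12e-06) and Gpx1 by 0.53 (SE 0.06, adjusted p = 4.94e-09). Gpx2 in ArKI caput was at least 3.47-fold higher than in ArKI IS, counted against 3 counts per library. Gpx4 was lower by 0.24 (−0.24, adjusted p = 0.0259) and Gpx6 higher by 0.41 (adjusted p = 0.0196), and each of these calls was lost when 1 of 3 single samples was left out (Gpx4: ArKI IS sample 1, ArKI caput sample 1 or 5, adjusted p up to 0.102; Gpx6: ArKI IS sample 3, ArKI caput sample 3 or 4, adjusted p up to 0.0709). The Gpx6 call was also lost with ArKI samples alone in the fit (0.41, adjusted p = 0.0674) and with the replicate number as a block (0.38, adjusted p = 0.195). Gpx7, which was graded in WT, gave 0.11 (SE 0.13, adjusted p = 0.44), and Gpx5 gave −0.04 (adjusted p = 0.812).

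In testis, Gpx1 and Gpx8 rose and Gpx5 fell in ArKI mice. Gpx1 stood at 26.6, 21.9 and 26.5 CPM in WT testis and at 46.0, 44.1 and 42.4 CPM in ArKI testis. The groups were wide apart, and Gpx1 rose by 0.79 on the log2 scale (SE 0.09, edgeR adjusted p = 9.1e-06). Gpx5 was at 66.9, 61.1 and 61.0 CPM in WT and at 45.3, 39.8 and 47.6 CPM in ArKI, again without overlap, and fell by 0.54 (SE 0.08, edgeR adjusted p = 0.000487). Among the 5 tested caput epithelium markers none passed in testis, and their log2 differences ran from −0.48 for Adam7 (adjusted p = 0.445) to 0.14 for Cst8 (adjusted p = 0.381), with a median of −0.28. Cst8 was the most abundant of them, at 248 CPM in WT and 277 CPM in ArKI testis on average. The list summed to 235 to 284 CPM in WT and 272 to 295 CPM in ArKI, so its sum mainly followed Cst8. The other listed genes averaged lower in ArKI than in WT testis. Lcn5 went from 5.037 to 3.804 CPM, Adam7 from 2.23 to 1.61 CPM and Lcn8 from 2.11 to 1.76 CPM. Crisp1 went from 1.31 to 1.16 CPM and Lcn9 from 0.146 to 0.133 CPM. Of 4 tested IS epithelium markers 1 passed and moved opposite to Gpx5, Lcn2, which rose from 208 to 1260 CPM on average (2.58 on the log2 scale, SE 0.11, edgeR adjusted p = 2.23e-07). The part of epididymal RNA in the testis Gpx5 difference was not tested.

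Gpx8 was scarce in testis, with 29, 31 and 28 counts in WT and 57, 77 and 63 counts in ArKI samples. All ArKI samples were higher, and Gpx8 rose by 0.87 (SE 0.19, edgeR adjusted p = 0.0145), but the call was lost with DESeq2 (adjusted p = 0.0819) and without WT sample 1 or 3 or ArKI sample 2 (adjusted p = 0.0774, 0.0632 and 0.0592), from 0.00537 upwards over all alternatives. Gpx7 had 18, 11 and 14 counts in WT and 41, 34 and 25 in ArKI. Its groups did not overlap either, yet 0.93 (SE 0.29, adjusted p = 0.119) did not pass.

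Gpx3 stood at 11.1, 16.0 and 16.7 CPM in WT testis and at 25.6, 18.3 and 23.2 CPM in ArKI testis. The groups were separated by a narrow gap, and the difference of 0.60 (SE 0.15, edgeR adjusted p = 0.0715) passed with DESeq2 (0.0174), limma voom and library sizes alone (0.0498 each), every gene with a count kept (0.0377), and without WT sample 3 or ArKI sample 2 (0.0375 and 0.00636), in a range up to 0.232. Gpx4, the leading member in testis, was at 187, 220 and 206 CPM in WT and 230, 216 and 215 CPM in ArKI, which overlapped (0.09, SE 0.07, adjusted p = 0.623). Gpx6 was level as well, at 18.7, 24.5 and 20.1 against 21.1, 22.1 and 22.4 CPM (0.03, SE 0.10, adjusted p = 0.935). Gpx2 had no count in any testis sample.

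**Figure D5:**
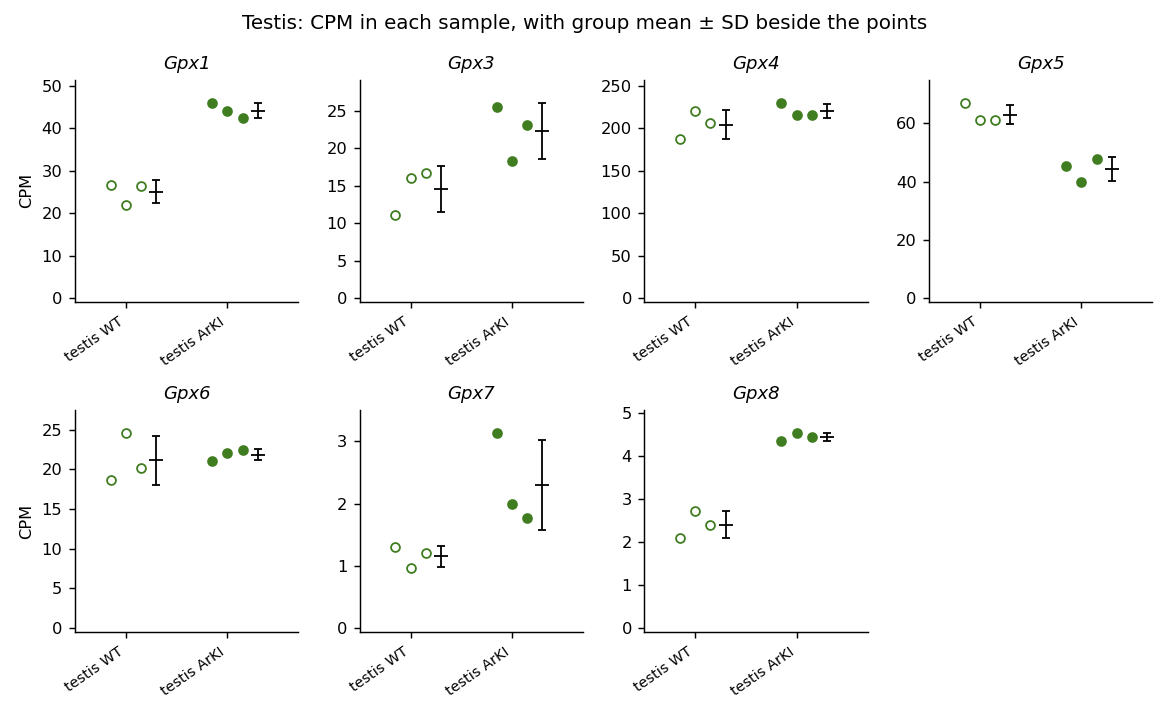
CPM of the 7 genes with counts in each testis sample, open circles for WT and filled for ArKI, with the group mean and SD (n = 3) as black bars on axes from 0. Gpx1, Gpx3, Gpx7 and Gpx8 are higher in all ArKI samples and Gpx5 lower, while Gpx4 and Gpx6 overlap.

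None of the members passed the study's limits in testis, an adjusted p below 0.2 and a fold change above 2, which 0.833% of genes passed. Log2 differences in testis fell with gene length over all genes (Spearman rho −0.302 across 14237 genes, which are not independent replicates), and the members are short. Genes of 1048 to 3222 exon bases, the range of all 8 members, had a median difference of 0.04 on the log2 scale, and 2.88% of them were called. The upper end is that of Gpx2, which had no count in testis. The 7 members tested there ran from 1048 to 1813 bases, and genes of that narrower range were not examined apart. With the length trend removed the same 3 members passed, Gpx1 at 0.72, Gpx8 at 0.77 and Gpx5 at −0.60. Of the 5 Leydig cell markers Cyp17a1 (354 to 542 CPM) and Cyp11a1 (165 to 318 CPM) rose. Star (118 to 151 CPM), Insl3 (34.7 to 36.0 CPM) and Hsd3b1, which stood lower without overlap (71.6 to 39.4 CPM, adjusted p = 0.289), did not pass, and the list summed to 671 to 834 CPM in WT and 1060 to 1125 CPM in ArKI. Of 5 smooth muscle markers Acta2 rose (59.3 to 77.0 CPM), with list sums of 131 to 132 and 135 to 156 CPM. Of the stroma markers Col1a1 and Col1a2 rose, 2 of 6, with sums of 153 to 172 and 201 to 214 CPM, and none of 7 immune, 12 sperm, 5 Sertoli cell, 4 endothelial, 3 basal cell, 3 clear and narrow cell and 3 ciliated cell markers passed. The part of these cell types in the Gpx1 and Gpx8 differences was not tested.

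The genes most alike in pattern were ranked by Pearson correlation of log2 CPM with each member over the 20 epididymal samples, as a description without a test. For Gpx5 they were Defb41, a beta-defensin (r = 0.881), Lamp2 (0.864) and Rnf34 (0.854), and within groups these correlations were 0.915, 0.946 and 0.868. For Gpx3 they were Nlrp9b (0.970), Gpr82 (0.953) and Gldc (0.943), which stayed at 0.925, 0.872 and 0.872 within groups, so that they followed Gpx3 among samples of one group. The pattern of Gpx2 is that of 1 group, ArKI caput, above samples with 0 to 2 counts, so its nearest genes (Dtx4, Slc35f2 and Prmt8, 0.972 to 0.976) share mainly that contrast between groups. Gpx8 was most like Swi5 (0.972), Rnf149 (0.967) and Nefh (0.962), in both cases with lower values within groups, from 0.404 to 0.673. Gpx1 ran with Tagln2 (0.962), Sdc3 (0.960) and 5730559C18Rik (0.958), again with lower values within groups (0.525, 0.527 and 0.389). Gpx4 ran with Akap7 (0.866), Dner (0.856) and Cstb (0.830), Gpx6 with Ergic1 (0.821), Gm749 (0.787) and Tmem176a (0.770), and Gpx7 with Atp5o (0.865), Lrrc51 (0.842) and Dpcd (0.839), and for these 3 members the values within groups ran from 0.501 to 0.775. Between members, Gpx3 and Gpx5 tended to run opposite within groups (r = −0.716), though not in every sample: WT IS sample 5 had the highest Gpx3 of its group and a Gpx5 level above the group mean.

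The enzymes that feed and surround the peroxidases were examined as 5 lists, for glutathione reduction and supply, NADPH supply, selenoprotein synthesis, other selenoproteins, and other peroxide and superoxide enzymes. Together 11 of 61 tested genes rose and 5 fell in IS, 10 of 61 rose and 9 fell in caput, and 5 of 63 rose and none fell in testis. These 26.2%, 31.1% and 7.94% stand beside the 29.6%, 27.7% and 1.96% of all genes called, and the list medians were 0.03, −0.01 and 0.10 on the log2 scale beside 0.00 for all genes in each tissue.

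In IS, 4 of 13 tested peroxide and superoxide enzymes rose and none fell: catalase (Cat, 0.45), the peroxiredoxins Prdx4 (0.47) and Prdx1 (0.23), and, with overlapping groups, Prdx3 (0.16). Of 9 NADPH suppliers 4 rose, malic enzyme Me1 (0.64), the isocitrate dehydrogenases Idh2 (0.49) and Idh1 (0.21), and Taldo1 (0.12), and Tkt fell (−0.18), the last 2 with overlapping groups. The glutathione list gave 2 up and 2 down of 15, with the 2 subunits of glutamate-cysteine ligase moving apart, Gclm at 0.25 and Gclc at −0.22, and with overlapping groups for Glrx (0.36) and Txnrd1 (−0.24). Glutathione reductase (Gsr) was not called in IS, caput or testis (0.10, 0.14 and 0.16, adjusted p = 0.226, 0.133 and 0.478). Of 13 other selenoproteins only the methionine sulfoxide reductase Msrb1, listed as Sepx1, changed (−0.50). In the selenoprotein synthesis list the tRNA-associated Trnau1ap fell by 0.26, and Lrp2, an uptake receptor of selenoprotein P that was picked here after its values were seen, rose by 1.43 (SE 0.39, edgeR adjusted p = 0.0265) from 31.8 to 57.5 CPM in WT to 47.6 to 212 CPM in ArKI, with overlapping groups.

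In caput, 3 of 15 genes of glutathione reduction and supply fell and none rose: Ggct (−0.73), glutaredoxin Glrx (−0.53) and Gclc (−0.25). Of 9 NADPH suppliers 3 fell and 2 rose, with transketolase Tkt at −0.48 and glucose-6-phosphate dehydrogenase G6pdx at −0.36 below WT and transaldolase Taldo1 at 0.26 above; Nnt (−0.16) and Idh1 (0.24) were the other calls, with overlapping groups. Of 14 peroxide and superoxide enzymes 4 rose, the extracellular superoxide dismutase Sod3 (0.83), Prdx4 (0.31), Cat (0.22) and Prdx3 (0.15), and 1 fell, the sperm-specific thioredoxin Txndc2 (−1.56), in the samples in which the sperm markers fell. Among 12 other selenoproteins Dio3 fell (−1.54), from 1.91 to 0.623 CPM, and Sepn1 (0.26) and, with overlapping groups, Sepw1 (0.40) rose. Of 11 genes of selenoprotein synthesis Scly (0.34) and, with overlapping groups, Sepp1 (0.27) rose and Sephs1 fell (−0.22). In testis the 5 genes that rose were Idh2 (0.66), Idh1 (0.35), Sod3 (0.42), Selm (0.75) and the selenium transport protein Sepp1 (0.52), and no list member fell. All of these calls are edgeR adjusted p-values below 0.05. Genes with overlapping groups, and Cat and Prdx3 in caput, lie outside the rule for naming list genes and were added after their values were seen so that each count is complete.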

How the data were processed

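The authors sequenced single-end 50-base reads on an Illumina HiSeq instrument, aligned them to mm10 with STAR and counted uniquely mapped reads per RefSeq gene with Subread 1.5.1 (demultiplexing by bcl2fastq 1.8.4, per the submitters' processing notes). The deposited values are raw counts per gene, unnormalised. Labels and methods name different library kits, one of them stranded, so use of strand in counting is not given in the sources used here.

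Counts were tested with edgeR 4.0.16 (R 4.3.3): TMM factors, filterByExpr (minimum count 10, total 15), robust quasi-likelihood fits and Benjamini-Hochberg adjustment over all genes tested, with an adjusted p below 0.05 as the call. Genotypes were compared within each tissue; segments and their interaction came from a 4-group fit, and testis from a fit of the WT groups. CPM used TMM factors over all 26 samples, and RPKM divided CPM by the longest coding transcript in GENCODE M21. Protein identities came from the translated transcripts. The study's own test (ROTS on voom values) was not run. The scripts were tested on simulated data with 200 changed genes. DESeq2 1.42.0, limma 3.58.1, other normalisations and filters, and each sample left out served as alternatives. An adjusted p in the text is edgeR's unless another tool is named. No pair of replicates agreed within sampling noise (the lowest chi-square per gene was 2.43).

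Named genes were all 8 members, up to 3 genes per list with the largest change among those called without overlap of groups, and the 3 genes most correlated with each member. Members and lists were chosen with earlier results of these data known. The gene mutated in the knock-in line is not reported here.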

Additional observations from a re-analysis of the deposited data

Results flagged for a closer look

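Gpx8 and Gpx7 were singled out because their genotype differences differed between the 2 epididymal regions in the interaction test of edgeR. For Gpx8 the caput difference minus the IS difference was −0.56 on the log2 scale (adjusted p = 8.05e-05), with log2 differences of 0.28 in IS and −0.27 in caput, both of which passed. For Gpx7 it was −0.58 (adjusted p = 0.0266), with 0.36 in IS and −0.21 in caput, of which the caput value did not pass (adjusted p = 0.275). Of 30 combinations of member and group with at least 4 samples, 0 held a sample far from the others by Dixon's limit, where chance alone would give about 1.5.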

How the results depend on the processing

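The number of members called stayed within 1.5 times its value under other normalisations, filters and tools in all 8 comparisons, counted here with Gpx2 wherever it was tested. Under the study's limits it dropped to 1 in IS, 1 in caput, 0 in testis, 1 between segments in WT, 1 between segments in ArKI and 0 for the interaction. The call in caput and the call between segments in ArKI were both Gpx2. It could be tested only through the ArKI caput samples in which it was high, so neither call is support. Leaving out single samples gave 3 to 4 calls in IS, 3 to 5 in caput, 2 to 3 in testis, 4 to 6 and 5 to 6 between segments in WT and ArKI, 1 to 4 for the interaction, and 7 in both comparisons with testis. Of the results for single members under alternatives, 1287 kept their side of the threshold, 45 lost a call and 22 gained one. No called difference reversed, but differences that were not called could change sign, as Gpx3 in caput did (−0.28 to 0.16 over the samples left out). The interaction dropped to 1 call without ArKI IS sample 3 or ArKI caput sample 5 and rose to 4 without ArKI caput sample 2. Same-numbered IS and caput samples did not deviate together in every pair (correlations of −0.106 to 0.186, in 3 of 5 WT and 1 of 5 ArKI pairs above 0.1), so the pairing is not known and the number was no block in the tests reported. With the replicate block Gpx6 between segments in ArKI lost its call (0.38, adjusted p = 0.195), and no other call it could be run for changed (Gpx2 between segments in WT was below the count filter there); Gpx3 in IS gave 0.98 and Gpx2 in caput 3.78. Removal of the length trend, chosen after the data were seen, added Gpx4 in IS (−0.21, adjusted p = 0.0488). The causes were not tested. The planned change of pseudocount was not run, because Gpx2, the member below the filter in IS and testis, had no count there. Depth limits Gpx2 most, and Gpx7 and Gpx8 in testis.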
